A study of Mus musculus with 6 samples.

Results

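The colony-stimulating factors Csf1, Csf2 and Csf3 and the receptor genes Csf1r, Csf2ra, Csf2rb and Csf2rb2 were chosen by symbol, and all 7 were found among the 24054 genes of a table of read counts from mouse thymus. The mRNA of the whole organ was sequenced in 3 control libraries and in 3 libraries of the genotype K5-rtTA:TetO-RANKL. The keratin 5 promoter of that genotype, active in basal and medullary epithelial cells, drives rtTA, which in the presence of doxycycline switches on a RANKL transgene. Controls carried 1 transgene only. Mice of both groups received doxycycline in food and water, from 8 weeks of age for 1 week according to one text and from 9 weeks for 2 weeks according to another. The labels name neither strain nor sex, and they do not say whether each library is a separate animal, so a p-value here sets a difference against the spread of these libraries, which may be technical.

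Colony-stimulating factors are secreted proteins that keep myeloid cells alive and drive their division and maturation. Csf1 (M-CSF) acts through Csf1r, a receptor tyrosine kinase of monocytes, macrophages and osteoclast precursors that also binds Il34. Csf2 (GM-CSF) binds an alpha chain, Csf2ra, which pairs with a signalling beta chain, Csf2rb, that the receptors for Il3 and Il5 share. Rodents carry an additional copy of the beta chain, Csf2rb2, which serves Il3. Csf3 (G-CSF) acts on neutrophils and their precursors through Csf3r. In bone, Csf1 and RANKL together drive the formation of osteoclasts, and medullary epithelium of the thymus responds to RANKL through its own receptor.

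The libraries held 18254870 to 25357060 counted reads, and 3 reads in a library corresponded to 0.122 to 0.161 CPM (counts scaled to library size with TMM factors). Tnfsf11, the gene of RANKL, measured 6.01, 6.34 and 8.89 CPM in control replicates 1 to 3 and 3334, 4812 and 2390 CPM in the RANKL libraries, which matches the labels. Markers of thymus tissue summed to 7167 to 8330 CPM in control and 323 to 944 CPM in RANKL libraries. Of these 8 genes 6 fell, among them Cd4, Cd8a and Ptcra, and 2 rose, Aire and Foxn1; the call of Foxn1 was lost without control replicate 2 (edgeR adjusted p = 0.0769) or 3 (0.0664). Markers of T cells and innate lymphoid cells fell in 10 of 12, against 29.6% of all genes tested, with a median log2 fold change of -3.49. Their sum went from between 10385 and 11428 CPM to between 425 and 1337 CPM. In whole tissue, fewer cells of a type and less RNA per cell cannot be told apart, and the part that this fall of thymocyte transcripts plays in the values below was not tested.

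Transcripts of all 7 genes were higher in RANKL, each with an edgeR adjusted p under 0.05 and with no overlap between groups. Of the 16096 genes tested, 63.4% were called in either direction and 33.8% were called higher, and 36.1% had every RANKL library above every control library. The 3 ligands rose the most, by log2 fold changes of 3.50 to 3.69, followed by the chains of the Csf2 receptor at 2.55 to 2.94 and by Csf1r at 1.80. An increase at least as large as that of Csf1r was called in 19.2% of genes tested. The median log2 fold change over all genes tested was -0.02.

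Csf1, the macrophage growth factor (Entrez gene 12977, chromosome 3, 107741048 to 107760469 in GRCm38), measured 31.2, 25.7 and 19.4 CPM in the control libraries and 185, 345 and 330 CPM in the RANKL libraries. The lowest RANKL library stood well above the highest control, and RANKL replicate 1 was the lowest of its group. The rise from 25.4 ± 5.88 to 287 ± 88.2 CPM (mean ± SD, n = 3 per group) came to 11.3-fold, or 3.50 ± 0.29 (SE) on the log2 scale, with an edgeR adjusted p of 1.24e-05.

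**Figure D1:**
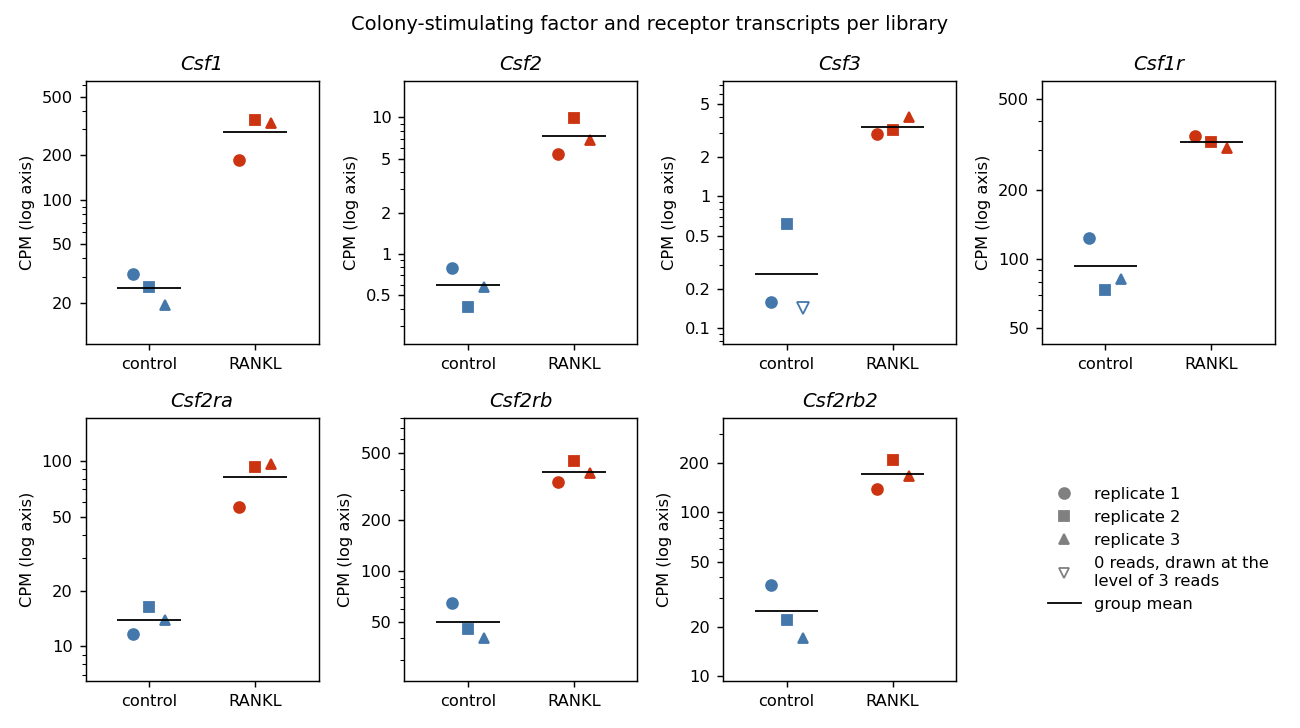
CPM of each of the 7 genes (log axis) in the 3 control and 3 RANKL libraries, with the symbol giving the replicate and the line the group mean. All RANKL libraries lie above all control libraries in each panel, and the open triangle marks the control library with 0 Csf3 reads, drawn at the level of 3 reads.

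The promoter of Csf1 is shown because the gene rose together with its receptor and because NF-kB, which signals downstream of RANKL's receptor, binds GC-rich motifs of this kind. Capitals mark matches on either strand to a loose NF-kB pattern, GGG and CC with any 5 bases between them, in the 250 bases before the RefSeq start (chr3:107760470-107760719, minus strand, GRCm38.p6).

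Csf1 promoter: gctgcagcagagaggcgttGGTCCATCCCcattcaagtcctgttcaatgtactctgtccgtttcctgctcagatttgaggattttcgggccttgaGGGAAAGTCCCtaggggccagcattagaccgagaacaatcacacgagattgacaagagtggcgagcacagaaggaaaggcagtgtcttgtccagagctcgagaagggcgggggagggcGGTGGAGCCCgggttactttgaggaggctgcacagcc

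The window held 4 matches, starting 231, 155, 154 and 37 bases before the start, and the pair at 155 and 154 overlaps. A match to this loose pattern was present in 45.8% of 32851 RefSeq promoter windows of the same length, so having such a match does not mark Csf1 out. Shares for stricter NF-kB patterns were not computed, so how common the exact sequence of the overlapping pair is was not tested. No match to the CK-1 element GAGATTCC (0.755% of windows), the AP-1 motif TGANTCA (6.75%), the C/EBP motif TTGCNNAA (9.56%) or the Ets core AGGAAG (29.5%) was found in the Csf1 window on either strand. Windows were given for 4 of the 7 genes. The window of Csf2ra held 2 overlapping matches to the NF-kB pattern and 2 to the Ets core, that of Csf2rb2 held 1 to the Ets core, and that of Csf2 held 1 to the C/EBP motif. The RefSeq start of Csf2 lies 232 bases upstream of the GENCODE start, so its window covers other sequence than one placed at the GENCODE start would.

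Csf2, the granulocyte and macrophage growth factor of activated lymphocytes, epithelium and stroma (Entrez gene 12981, chromosome 11, 54247270 to 54249899), was scarce in control libraries. It had 15, 8 and 12 reads there, or 0.791, 0.412 and 0.573 CPM, and 101, 242 and 145 reads in the RANKL libraries, or 5.44, 9.84 and 6.83 CPM. The 95% Poisson intervals, which cover counting error only, ended at 1.3 CPM in the highest control and began at 4.43 CPM in the lowest RANKL library. The log2 fold change was 3.63 ± 0.40 (edgeR adjusted p = 5.66e-05), 12.4-fold between group means. A GENCODE antisense transcript overlaps Csf2 and is not a row of the table, and no source used here says whether the counting used strand.

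Csf3, the neutrophil growth factor (Entrez gene 12985, chromosome 11, 98700183 to 98703631), had the fewest reads of the 7 genes. Control libraries held 3, 12 and 0 reads, and RANKL libraries 55, 79 and 84 reads, or 2.96, 3.21 and 3.96 CPM. The control libraries were unequal, with 12 of 15 reads in control replicate 2 and a 95% Poisson upper limit of 0.176 CPM in control replicate 3, while the RANKL libraries lay close together. The log2 fold change was 3.69 ± 0.76 (edgeR adjusted p = 0.00205). Its size rested on the controls: it was 5.34 without control replicate 2, 3.08 without control replicate 3 and 4.61 with limma-voom, and it was called each time.

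Csf1r (Entrez gene 12978, chromosome 18, 61105572 to 61131139) measured 124, 73.8 and 82.4 CPM in control and 346, 326 and 306 CPM in RANKL libraries. It was the only one of the 7 genes for which RANKL replicate 1 was the highest of its group; for the other 6 that library was the lowest. Group means differed 3.48-fold (log2 fold change 1.80 ± 0.21, edgeR adjusted p = 8.63e-05). Hmgxb3, which lies on the opposite strand and overlaps Csf1r in GENCODE, had overlapping groups, at 61.5 ± 15.6 CPM in control and 43.6 ± 5.96 CPM in RANKL, with a log2 fold change of -0.50 (edgeR adjusted p = 0.0591). It was called lower by DESeq2, without the low-count filter and without control replicate 3 (edgeR adjusted p = 0.0187). MicroRNA genes also lie within Csf1r and within each beta chain gene.

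Csf2ra, the alpha chain that gives the receptor its specificity for Csf2 (Entrez gene 12982, chromosome 19, 61217191 to 61228461), measured 11.6, 16.3 and 13.8 CPM in control and 56, 92.7 and 95.7 CPM in RANKL libraries. Its mean rose 5.87-fold (log2 fold change 2.55 ± 0.24, edgeR adjusted p = 2.61e-05). Among RANKL libraries replicate 1 stood apart from the other two, as it did for Csf1.

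Csf2rb, the shared beta chain (Entrez gene 12983, chromosome 15, 78325800 to 78351001), measured 64.9, 45.3 and 40.5 CPM in control and 335, 445 and 379 CPM in RANKL libraries. The log2 fold change was 2.94 ± 0.22 (edgeR adjusted p = 9.65e-06), 7.69-fold between means. Csf2rb2, the Il3-specific copy (Entrez gene 12984, chromosome 15, 78282507 to 78305721), lies 20.1 kb from it. It measured 36.1, 21.9 and 17 CPM in control and 138, 207 and 166 CPM in RANKL libraries, a log2 fold change of 2.77 ± 0.29 (edgeR adjusted p = 4.07e-05). The order of the libraries within each group was the same for both beta chains.

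The coding sequences of the beta chains are shown because their likeness bears on how far their reads can be told apart. In GENCODE they run to 2688 bases for Csf2rb and 2634 for Csf2rb2 and are identical at 95.2% of 2628 aligned positions. Capitals mark the bases that differ in the least alike stretch of 60 aligned bases, which starts at coding base 304 in Csf2rb and 307 in Csf2rb2 (counted from 1 at the start codon) and holds 13 differences.

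Csf2rb: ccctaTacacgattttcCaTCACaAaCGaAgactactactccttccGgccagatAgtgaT
Csf2rb2: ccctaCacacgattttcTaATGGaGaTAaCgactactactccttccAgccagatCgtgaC

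The longest identical run covers 242 bases, and its first 60, from coding base 2083 in either gene, read as follows.

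Csf2rb and Csf2rb2: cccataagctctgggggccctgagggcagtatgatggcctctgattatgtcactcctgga

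Reads from stretches like the first can be assigned to 1 gene, and reads that lie within the second cannot. Of all stretches of 75 bases in the Csf2rb transcript, 10.7% also occur in that of Csf2rb2, and for stretches of 50 bases the share is 18.4%. No source used here gives the read length or the treatment of reads with several matches, so the values of each beta chain are uncertain by that part. With the reads of both summed into 1 gene the log2 fold change was 2.89 ± 0.25 (edgeR adjusted p = 1.58e-05).

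The Csf2rb2 share of the reads of both beta chains was 35.8%, 32.6% and 29.5% in control and 29.2%, 31.7% and 30.4% in RANKL libraries. The groups overlapped, and the means of 32.6% ± 3.12 and 30.5% ± 1.24 (SD, n = 3 per group) did not differ beyond their spread (exact permutation test, two-sided p = 0.4, the smallest possible being 0.1). The 95% Wilson intervals, which cover counting error only, were 33.6% to 37.9%, 30.1% to 35.2% and 27% to 32.1% in control and 28.3% to 30.2%, 31% to 32.4% and 29.6% to 31.3% in RANKL libraries, so that of control replicate 3 overlapped those of all RANKL libraries.

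**Figure D2:**
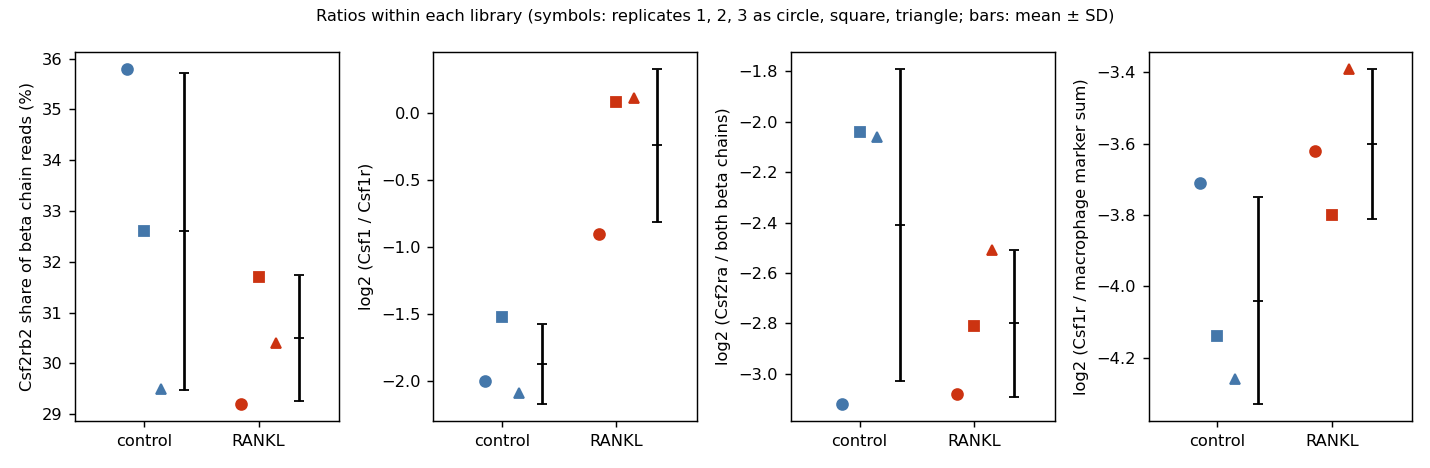
Ratios within each library: the Csf2rb2 share of beta chain reads in percent, and log2 ratios of Csf1 to Csf1r, of Csf2ra to both beta chains and of Csf1r to the summed macrophage markers, with points for libraries and bars for mean ± SD. Groups separate in the ratio of Csf1 to Csf1r and overlap in the others.

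The ligand Csf1 rose more than its receptor. The log2 ratio of Csf1 to Csf1r CPM was -2.00, -1.52 and -2.09 in control and -0.90, 0.08 and 0.11 in RANKL libraries. All RANKL libraries lay above all controls, a difference of 1.63 (exact permutation test, two-sided p = 0.1, the smallest that 3 against 3 libraries allow). The log2 ratio of Csf2ra to the summed beta chains was -3.12, -2.04 and -2.06 in control and -3.08, -2.81 and -2.51 in RANKL libraries. These groups overlapped (exact permutation p = 0.4), and control replicate 1 was the lowest library of all. Csf1r set against the sum of 16 macrophage markers gave log2 ratios of -3.71, -4.14 and -4.26 in control and -3.62, -3.80 and -3.39 in RANKL libraries, a difference of 0.43 with overlapping groups (exact permutation p = 0.2). Most of that sum came from Lyz2, C1qa, C1qb and C1qc, at 806, 228, 158 and 181 of 1622 CPM in control replicate 1, so the ratio mainly sets Csf1r against them. These 4 ratios were the only ones tested. Adjusted over them by Benjamini-Hochberg, the p of the Csf1 ratio was 0.4.

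Levels were compared between genes as CPM per kilobase of exon. In control Csf1r stood highest, at 19.1 ± 5.54 CPM per kb (SD, n = 3), above Csf2rb at 9.61 ± 2.47, with no overlap between them. Csf2rb, Csf2ra, Csf1 and Csf2rb2 followed with ranges that overlapped from each to the next, and Csf2 at 0.740 ± 0.237 and Csf3 at 0.183 ± 0.227 came last, each below the gene before it in every library. In RANKL libraries Csf2rb (73.9 ± 10.6), Csf1r (66.7 ± 4.07), Csf1 (60.8 ± 18.7), Csf2ra (43.8 ± 11.9) and Csf2rb2 (35.9 ± 7.24) overlapped from each to the next. Csf2 and Csf3 stayed last, at 9.21 ± 2.81 and 2.39 ± 0.367 CPM per kb. Among 15393 genes ranked by level per kb, Csf1 went from percentile 46.5 to 92.5, Csf1r from 73.5 to 93.3, Csf2 from 20.6 to 56.5 and Csf3 from 8.47 to 27.7.

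**Figure D3:**
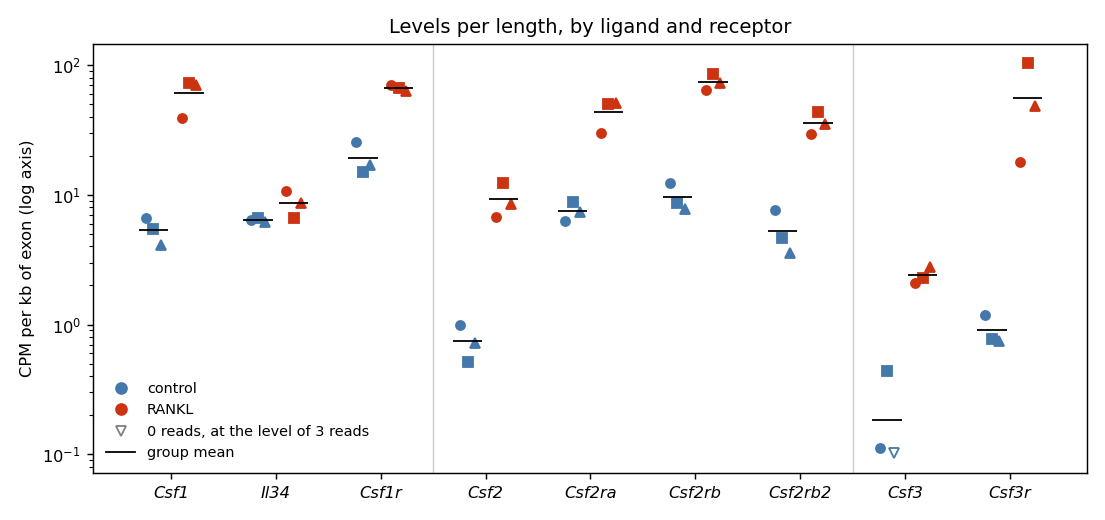
CPM per kilobase of exon (log axis) of each ligand beside its receptor chains, with Il34 and Csf3r added, in control (blue) and RANKL (red) libraries, with lines for group means. Csf2 and Csf3 lie below their own receptor chains in both groups, while Csf1 reaches the level of Csf1r in RANKL libraries.

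Genes that share these receptors or act beside them were read from a list of 13, of which 11 were tested. Of these 6 rose and none fell, against 33.8% and 29.6% of all genes tested. The median log2 fold change was 0.63, also with Il3 set at the fold given below for an assumed 3 control reads. Csf3r, the receptor of Csf3, had 79, 53 and 55 reads in control and 1166, 8864 and 3571 in RANKL libraries. The log2 fold change was 5.96 ± 0.63 (edgeR adjusted p = 5.73e-05), or 5.21 without RANKL replicate 2. The RANKL libraries differed widely, at 62.8, 360 and 168 CPM, and their order was that of the neutrophil receptor Cxcr2, at 50.7, 200 and 98.2 CPM. Neutrophil genes listed below did not all share this order. S100a9, Retnlg and Mmp9 had it, while Camp, Ngp and Mpo were lowest in RANKL replicate 2, and Ltf and Lcn2 were highest in RANKL replicate 1.

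**Figure D4:**
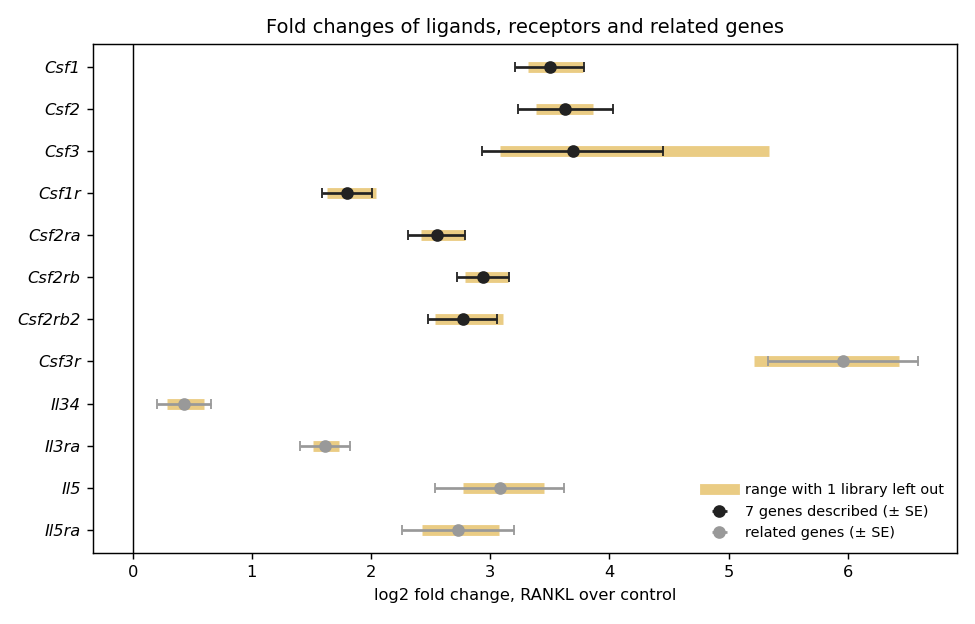
Log2 fold change, RANKL over control, of the 7 genes (black) and of related genes (grey), with bars for the standard error and a shaded band for the range when 1 library is left out; Il3, with 0 reads in control, is not drawn. The ligands lie above 3, Csf1r lies at 1.80, and the band of Csf3 is the widest among the 7.

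Il34, the other ligand of Csf1r, was at 11.7, 12 and 11.3 CPM in control and 19.5, 12.1 and 15.7 CPM in RANKL libraries; the groups did not overlap, but it was not called, with a log2 fold change of 0.43 ± 0.23 (edgeR adjusted p = 0.126). Il3, which lies 15.2 kb from Csf2 on chromosome 11, had 0 reads in every control library and 21, 17 and 30 reads in RANKL libraries. Il3 passed the low-count filter only through its RANKL libraries. Set against an assumed 3 reads over the control group, it was 20.9-fold higher, or 13.5 to 25.3 with 1 library left out. These folds leave out counting error in RANKL libraries and are not confidence limits. Il3ra, the alpha chain of the Il3 receptor, rose by 1.61 ± 0.21 on the log2 scale, from 7.47 ± 1.12 to 22.9 ± 0.897 CPM. Il5, the eosinophil growth factor, had 11, 6 and 9 reads in control and 100, 40 and 91 in RANKL libraries, a log2 fold change of 3.08 ± 0.54 (edgeR adjusted p = 0.000845). Il5ra, its alpha chain, rose by 2.73 ± 0.47. Within RANKL libraries Il3, Il5 and Il5ra were lowest in replicate 2, which held the most Csf2. Kit, the receptor of stem cell factor, was the remaining gene called, at 0.63 (edgeR adjusted p = 0.0208). Kit missed the threshold when control replicate 2 (edgeR adjusted p = 0.0612), control replicate 3 (0.0572) or RANKL replicate 1 (0.0524) was left out, and it was named after its value was seen.

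Genes that relay signals from these receptors did not move together. Of 22 tested, 9 rose and 7 fell, against 33.8% and 29.6% of all genes tested, and the median was -0.12. Tyrobp, an adaptor of myeloid receptors, rose by 1.97 ± 0.18 on the log2 scale, the kinase Lyn by 1.76 ± 0.18 and Plcg2, a phospholipase of myeloid and B cells, by 1.82 ± 0.21. Stat5b, a transcription factor that Csf2 and Csf3 receptors activate and that thymocytes also use, fell from 398 ± 44.2 to 90.9 ± 21.4 CPM.

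Genes that STAT5 and these cytokines induce rose in 7 of 12, with 2 lower, against 33.8% and 29.6% of all genes tested, and a median of 0.61. Cish, a feedback inhibitor of STAT5 signalling, went from 31.4, 21.9 and 25.9 CPM in control to 180, 176 and 205 CPM in RANKL libraries, with a log2 fold change of 2.83 ± 0.18. Socs2 and Socs3, inhibitors of the same family, rose by 2.79 ± 0.19 and 3.38 ± 0.26, and the cytokine Osm rose by 3.72 ± 0.45. Pim2 and Bcl2l1 fell, with log2 fold changes of -0.87 and -1.07. They were named after their values were seen.

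Cytokines known to induce colony-stimulating factors rose in 13 of 13 tested, against 33.8% of all genes tested, with a median of 3.89. Il17a, Il17c and Il6 had at most 8 reads in any control library. They passed the low-count filter only through their RANKL libraries, so part of that count follows from the filter. Il17f, at 3, 5 and 2 reads in control and 8, 12 and 22 in RANKL libraries, was not tested. These genes were named after their values were seen. The Il1 family members Il1b, Il36a and Il36g rose by 6.20 ± 0.54, 5.74 ± 0.39 and 8.21 ± 0.60, with 7.53 for Il36g without RANKL replicate 2, and Il23a by 3.68 ± 0.37. Il36a and Il36g stand in the table under their older symbols Il1f6 and Il1f9. Transcription factors and RNA decay factors of the colony-stimulating factor genes rose in 10 of 17 and fell in 3, against 33.8% and 29.6% of all genes tested, with a median of 0.66. The 3 were Ets1 at -2.71, Nfatc1 at -1.09 and Runx1 at -0.48, named after their values were seen, and the call of Runx1 was lost with upper-quartile factors, with the title-number block and without control replicate 1 or RANKL replicate 3. Cebpb, a factor of emergency granulocyte production, rose from 7.81 ± 2.46 to 82.6 ± 8.30 CPM. Jun and Junb, AP-1 subunits, rose by 2.29 ± 0.22 and 2.10 ± 0.17, and Zc3h12a, a nuclease that degrades cytokine transcripts, by 2.23 ± 0.21.

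**Figure D5:**
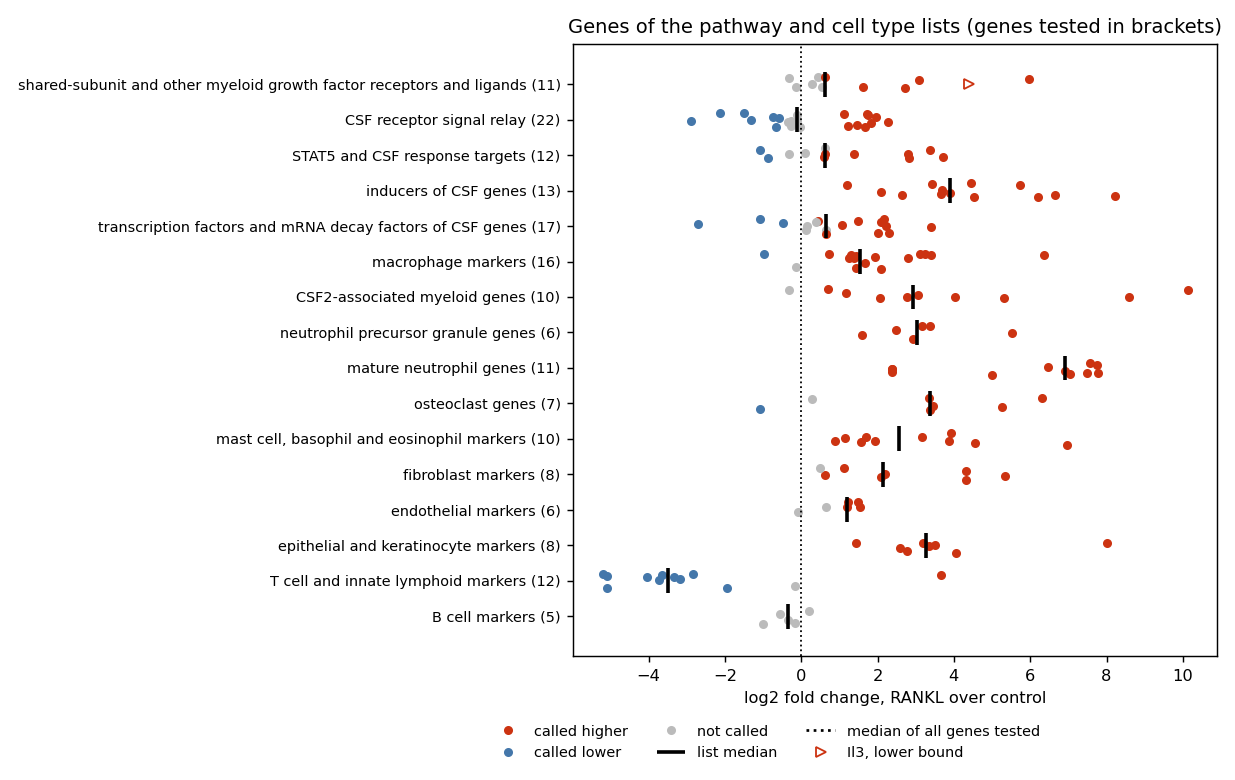
Log2 fold change, RANKL over control, of each tested gene of 16 lists, coloured by its call, with a thick bar at the list's median and a dotted line at the median of all genes tested. Inducers of colony-stimulating factors and neutrophil genes lie to the right, T cell genes to the left, and genes that relay receptor signals lie on either side of the line.

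Transcripts of the cells that these factors act on were read from marker lists, which measure RNA and not numbers of cells. The shares to set beside each count are those over all genes tested, 33.8% called higher and 29.6% called lower. Macrophage markers rose in 14 of 16, with 1 lower and a median of 1.55, and summed to 1306 to 1622 CPM in control and 3209 to 4542 CPM in RANKL libraries. Cd14, a coreceptor for bacterial lipopolysaccharide, rose by 6.35 ± 0.45, the IgG receptor Fcgr1 by 3.12 ± 0.21 and the lipid receptor Trem2 by 3.24 ± 0.25. The gene that fell was Timd4, at -0.99, and its call was lost with upper-quartile factors and without control replicate 1 or 3 or RANKL replicate 1 or 2 (edgeR adjusted p = 0.0535 to 0.104). Osteoclast genes, whose cells need Csf1r, rose in 5 of 7, with a median of 3.36; Nfatc1, the transcription factor that RANKL induces in osteoclast precursors and that thymocytes also use, fell, and Acp5, the osteoclast phosphatase, was at 0.28 (edgeR adjusted p = 0.192). Of the fusion proteins of osteoclasts, Dcstamp rose by 5.25 ± 0.29 and Ocstamp by 6.31 ± 0.53, or 6.99 without control replicate 1. Ocstamp had 3, 1 and 1 reads in control and passed the low-count filter only through its RANKL libraries. Ctsk, the bone-resorbing protease cathepsin K, rose by 3.35 ± 0.25, and Atp6v0d2, a proton pump subunit, by 3.36 ± 0.28.

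Myeloid genes associated with Csf2 rose in 9 of 10, against 33.8% of all genes tested, with a median of 2.92. Among them Arg1 rose by 10.14 ± 0.52, the beta-glucan receptor Clec7a by 5.31 ± 0.28, the integrin Itgax by 3.07 ± 0.21 and Mgl2 by 2.77 ± 0.19. Pparg, which Csf2 induces in alveolar macrophages, was the gene not called, at -0.32 (edgeR adjusted p = 0.322). Its name is given after its value was seen.

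A list of mature neutrophil genes rose in 11 of 11 tested, with a median of 6.91, and 1 of neutrophil precursors in 6 of 6, with a median of 3.04. The mature list also holds Camp, Ltf, Ngp and Lcn2, which maturing precursors transcribe. Of all genes tested 33.8% were called higher. Cebpe, Ms4a3, Ctsg and, in the mature list, Stfa2l1 had at most 7 reads in any control library. They passed the low-count filter only through their RANKL libraries, and at control levels they would not have been tested. The mature list summed to 45.4 to 89.7 CPM in control and 3451 to 6575 CPM in RANKL libraries, and the precursor list to 1.96 to 5.27 and 34.3 to 44.8 CPM. S100a8, S100a9, Ltf and Lcn2 held most of the mature sum, at 698, 990, 1314 and 1266 of 4542 CPM in RANKL replicate 1. Camp, Ngp and Mmp9 rose the least of the mature list, by 2.39, 2.38 and 2.38. S100a8, Ltf, Camp, Ngp, Mmp9, Ctsg and Stfa2l1 were named after their values were seen. Which cells gave the reads of the mature list was not tested. Lcn2 rose by 7.75 ± 0.42, Retnlg by 7.05 ± 0.44, S100a9 by 6.91 ± 0.50 and Cxcr2 by 7.78 ± 0.58, or 7.15 without RANKL replicate 2. Of the precursor genes Mpo, the myeloperoxidase of primary granules, rose by 3.38 ± 0.37, Prtn3, a granule protease, by 2.92 ± 0.46, Ms4a3 by 3.16 ± 0.54 and Cebpe, a factor of granule maturation, by 5.53 ± 0.62, or 6.49 without control replicate 1. Their part in the value of Csf3r was not tested. Markers of mast cells, basophils and eosinophils rose in 10 of 10, with a median of 2.55, and summed to 22.9 to 26.8 CPM in control and 116 to 178 CPM in RANKL libraries. Siglecf, listed under its older symbol Siglec5, Epx and Prg2, of eosinophils, rose by 6.96 ± 0.69, 4.54 ± 0.54 and 3.92 ± 0.48, and Cma1, a mast cell chymase, by 1.69 ± 0.24. Siglecf and Epx, with at most 5 reads in any control library, also passed the filter only through their RANKL libraries.

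Cells that can make the ligands were read in the same way, beside the same shares of 33.8% higher and 29.6% lower over all genes tested. Fibroblast markers rose in 7 of 8, with a median of 2.15 and a sum of 455 to 557 CPM in control and 4070 to 7849 CPM in RANKL libraries, led by Col1a2, Col3a1 and Col1a1, at 4.31 ± 0.32, 4.32 ± 0.32 and 5.34 ± 0.41, and Pdgfrb at 2.10 ± 0.20. Epithelial and keratinocyte markers rose in 8 of 8, with a median of 3.26 and a sum of 586 to 759 CPM in control and 4931 to 6862 CPM in RANKL libraries, among them Krt14 by 3.35 ± 0.25 and Cdh1 by 3.18 ± 0.24. Endothelial markers rose in 4 of 6, with a median of 1.21, summing to 195 to 255 CPM in control and 275 to 347 CPM in RANKL libraries, among them Cdh5 by 1.49 ± 0.24, Emcn by 1.54 ± 0.31 and Kdr by 1.23 ± 0.31. The other was Vwf, a clotting factor of endothelium, at 1.20 ± 0.44 with overlapping groups; its call was lost without the low-count filter and without control replicate 2 or 3 or RANKL replicate 1 or 3 (edgeR adjusted p = 0.0559 to 0.134). The 1 lymphoid gene that rose was Il1rl1, the Il33 receptor of type 2 innate lymphoid cells, mast cells and regulatory T cells, by 3.66 ± 0.32. Of 5 B cell markers none was called by edgeR (1 had an unadjusted p under 0.05, and DESeq2 and limma-voom each called 1 lower), and their median was -0.34. Which of these cells gave the reads of Csf1, Csf2 and Csf3 was not tested.

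Patterns over the 6 libraries were compared by the root mean square distance between log2 values centred on each gene's mean, among 12940 genes. For Csf1 the nearest genes were Il1rl1 (0.185), Socs3 (0.201) and Nfe2 (0.206), and for Csf2 they were Krt14 (0.182), Socs3 (0.186) and Psors1c2 (0.19). The nearest to Csf3 were Col7a1, Sptlc3 and Loxl4, at 0.346 to 0.432, and no gene lay within 0.2 of it. Csf1r was nearest to Plcg2 (0.075), Trp53inp2 (0.096) and Zfp703 (0.107), with 101 genes within 0.2. Csf2ra was nearest to Fes (0.185), Zc3h12a (0.189) and Havcr2 (0.19). Csf2rb was nearest to Nfil3, Slc7a8 and Pkp2, and Csf2rb2 to Edn1, Hk2 and Pkp2. The distances are dominated by the difference between the groups, which all of these genes share, and the median distance over all genes searched ran from 1.08 for Csf1r to 2.12 for Csf3.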

How the data were processed

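The members and gene lists were chosen with earlier results of these data known. Thymus RNA was purified with TRIzol and a column, and 250 ng of it entered a strand-marking mRNA kit, per the labels' protocols. The deposited values are raw counts, 1 whole number for each gene in each library. STAR and the mm10 genome are named in the submitters' processing notes; no source used here gives its version, the counting program, the use of strand or the annotation.

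Replicates were numbered in accession order. No library repeated another of its group (chi-square per degree of freedom 31.7 to 67.9). Genes passing filterByExpr were scaled by TMM and tested by edgeR 4.0.16 (R 4.3.3, robust quasi-likelihood F test), with Benjamini-Hochberg adjustment over 16096 genes and a threshold of 0.05. Genes scarce in 1 group passed that filter only where the other group held more reads. CPM used TMM-scaled totals. Standard errors were derived from the F statistic. Ratios were tested by exact permutation. On simulated counts with 14833 genes tested, 46 of them changed 4-fold, 44 changed 2-fold and 47 changed 1.5-fold. The test called 100%, 61.4% and 21.3% of these, and 9 calls were false. The simulation gave every gene the same dispersion and changed few genes, as many up as down. In the data 63.4% of genes were called, so these rates do not measure errors in the data. The 17 lists held 182 genes, of which 181 were in the table, 5 under older symbols. Named genes were the 7 members, 6 related genes whatever their outcome, up to 4 per list with the smallest p and the 3 nearest patterns per member, where 0.1 CPM was added before taking logs. 1 gene that this rule names is not reported here. Positions and the promoter are from RefSeq GRCm38.p6, transcripts and exon lengths from GENCODE M21. Alternatives used limma 3.58.1 and DESeq2 1.42.0.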

Additional observations from a re-analysis of the deposited data

How the results depend on the processing

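All 7 genes kept their direction and their call with RLE or upper-quartile factors, with library totals alone, with 2 other filters, without robust estimation, with DESeq2, with limma-voom, with sample-title number ranges as a block, and with each library left out. Except for Csf3 their log2 fold changes stayed within 1.5-fold of the reported one. Csf3 ran from 3.08 to 5.34 with 1 library left out and was 5.39 with the title-number block, which takes control replicate 2 out of the estimate and leaves it 3 reads among the controls. The controls held 15 Csf3 reads in all, and the 95% Poisson intervals of control replicates 2 and 3 did not overlap. Ranges with 1 library left out were 3.32 to 3.78 for Csf1, 3.38 to 3.86 for Csf2, 1.63 to 2.04 for Csf1r, 2.42 to 2.79 for Csf2ra, 2.79 to 3.15 for Csf2rb and 2.54 to 3.11 for Csf2rb2. Upper-quartile factors moved the median of all genes tested by 0.10. Counts of called genes ran from 5038 to 5955 higher and from 3902 to 5332 lower. Of the ratios, the difference in the Csf2rb2 share ran from -3.72 to -0.604 percentage points with 1 library left out, and the other 3 kept their sign, at 1.46 to 1.96 for Csf1 to Csf1r, -0.75 to -0.21 for Csf2ra to the beta chains and 0.32 to 0.60 for Csf1r to macrophage markers. Cd79b, a B cell marker at -0.17, ran from -0.40 to 0.10 with 1 library left out and was above 0 without RANKL replicate 2. The labels give no replicate numbers, so libraries were not paired by number; the block on title numbers joins libraries with neighbouring numbers, and the labels do not say what these numbers mean.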
